A study of Homo sapiens with 35 samples.

Results

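The cytosolic heat shock chaperones and their regulator HSF1 were followed through recovery from proteasome inhibition. The members were taken by symbol, as the protein-coding entries of HSF1, HSPA1A, HSPA1B, HSPA8, HSPH1, HSP90AA1, HSP90AB1, DNAJB1, HSPB1 and BAG3. These were 10 of the 19665 protein-coding entries in the series, and all 10 had counts and were among the 17999 entries tested. The cells were RPMI-8226, an established multiple myeloma line, which received carfilzomib, an irreversible proteasome inhibitor, at 750 nM for 1 h, were washed and were then grown without drug. RNA was collected on day 0 and on days 1, 2, 4, 6, 8 and 10, with 5 libraries a day and 35 in all. Per the labels day 0 also carries the carfilzomib treatment, but the methods of the study place its collection before the drug. Day 0 is therefore the untreated baseline here. The series holds no untreated library of a later day. By the methods, cells were set to a fixed density in fresh medium on day 0, and density was set again on days 6 and 8. From day 2 on, cells were collected just before a medium change. Later changes against day 0 thus cannot be told apart as effects of the pulse, time in culture, medium age or cell density. The libraries came from subcultures split from 1 expanded culture of this single line. The methods name 5 subcultures for RNA sequencing and list collection on every day, which implies that subcultures were sampled repeatedly. Which libraries share a subculture is not given in the sources used here, so the tests treat libraries of different days as independent. The p-values thus measure the spread between libraries of one experiment.

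Cytosolic chaperones bind unfolded polypeptides and return them to a folded state or pass them to the proteasome. HSF1 is the transcription factor that switches on the inducible chaperone genes when unfolded protein accumulates, by forming trimers on heat shock elements, which are runs of the unit GAA in alternating orientation. Its activity is set mainly by release from chaperones and by modification of the protein, and not mainly by the amount of its own mRNA. HSP70 proteins (HSPA1A, HSPA1B and HSPA8) work in cycles with J proteins such as DNAJB1, which deliver substrates, and with nucleotide exchange factors such as HSPH1 and BAG3. HSP90 proteins (HSP90AA1 and HSP90AB1) mature kinases and steroid receptors, and small heat shock proteins such as HSPB1 hold unfolded proteins in a soluble state. Plasma cells and myeloma cells make large amounts of immunoglobulin and depend on the proteasome to clear misfolded protein.

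The promoters of the members differed in their exact matches to the letters of heat shock elements, and stretches with a match are shown. Elements with a changed letter or outside the searched windows would not be found, and a link to the changes in level was not tested. RefSeq start sites of GRCh38.p14 gave 14 windows for 9 of the 10 members, each covering 250 bases before and 50 bases after a start. Each window was searched for a pair of facing units, spelled GAANNTTC or TTCNNGAA, forms that read the same on both strands and that overlap each other in longer runs. Of all 35116 windows in the table, 4737 (13.5%) held such a pair, with GAANNTTC in 6.77% and TTCNNGAA in 7.74%. A run of 3 alternating units was held by 172 windows (0.49%). Among the members, 8 of the 14 windows held a pair, and they belonged to 7 members. HSP90AA1, HSP90AB1 and HSPA8 were the 3 members with a run of 3 units, and BAG3 and HSPH1 had no match in their windows. HSP90AB1, HSP90AA1 and DNAJB1 also had windows without a match, at other start sites. Another DNAJB1 window held 1 match and is not shown. The stretch of HSPA8 holds the nearer to the start of its 2 runs of 3 units. Capitals mark the matched units, and all stretches are given 5′ to 3′ on the strand of the gene. HSPA1A and HSPA1B are shown up to the last base before the start site, to let their near identity be seen. Over the whole window 277 of 301 aligned positions (92%) were the same in these 2 genes.
HSPA1A, chr6:31815413-31815542, plus strand: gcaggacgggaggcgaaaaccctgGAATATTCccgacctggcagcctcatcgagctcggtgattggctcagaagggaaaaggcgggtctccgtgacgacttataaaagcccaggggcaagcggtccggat
HSPA1B, chr6:31827608-31827737, plus strand: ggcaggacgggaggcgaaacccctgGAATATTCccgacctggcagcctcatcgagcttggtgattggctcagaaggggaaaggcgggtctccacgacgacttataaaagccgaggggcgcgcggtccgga
HSPA8, chr11:123062137-123062211, minus strand: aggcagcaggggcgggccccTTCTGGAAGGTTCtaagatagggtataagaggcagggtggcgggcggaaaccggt
HSP90AA1, chr14:102087085-102087152, minus strand: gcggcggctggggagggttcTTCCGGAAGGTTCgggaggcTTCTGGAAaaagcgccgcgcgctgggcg
HSP90AB1, chr6:44247758-44247863, plus strand: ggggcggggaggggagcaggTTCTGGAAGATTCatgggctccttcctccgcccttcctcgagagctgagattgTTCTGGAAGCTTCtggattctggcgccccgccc
DNAJB1, chr19:14518417-14518494, minus strand: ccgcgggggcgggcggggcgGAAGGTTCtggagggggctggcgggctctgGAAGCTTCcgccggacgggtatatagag
HSPB1, chr7:76302471-76302518, plus strand: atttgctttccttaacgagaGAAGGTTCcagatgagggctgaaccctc
A match describes letters in a window, and no binding was measured in these libraries.

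The libraries held 6519392 to 10962890 counts each, with a median of 7643975, of which 5373835 to 9307889 were protein-coding. The labelled cell type was checked against its markers, and all 6 plasma cell markers had counts. Their summed level was 1260 to 2010 CPM (protein-coding counts scaled to library size, for markers without the TMM factors used for other levels). The 4 T cell markers summed to 0.914 to 5.17 CPM, the 4 monocyte markers to 0 to 2.28 CPM with CD163 at 0, and the 4 stromal markers to 0 to 1.62 CPM with COL1A2 and LUM at 0. Mitochondrially encoded transcripts took 7.97% to 11.9% of protein-coding counts on day 0 and 5.52% to 7.51% on day 1, and their part in the results was not tested.

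On day 1 the chaperone genes were raised together. The members took 0.264% ± 0.018 of protein-coding counts on day 0 and 0.778% ± 0.032 on day 1 (SD, n = 5 libraries). HSPA1A rose most, 10.1-fold, followed by HSPB1 at 4.31-fold, HSP90AA1 at 3.93-fold, BAG3 at 3.32-fold, HSPA8 at 3.20-fold, HSPH1 at 2.91-fold and HSP90AB1 at 2.51-fold. HSPA1B and HSF1 rose less, and DNAJB1 fell. In edgeR's quasi-likelihood test with Benjamini-Hochberg adjustment over all 17999 entries (called at Q ≤ 0.05), 9 of 10 members were higher on day 1 than on day 0, where 25.4% of all entries were called higher. The 1 member called lower stood against 27.3% of all entries. With a fold change above 2 as a further cutoff, 7 members were higher, against 7.27% of entries, and 0 were lower, against 13.2%. The median log2 fold change of the 10 members was 1.61, and that of all entries tested was -0.06. In bulk RNA, a change in the number of cells that express a gene and a change in RNA per cell cannot be told apart.

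**Figure D1:**
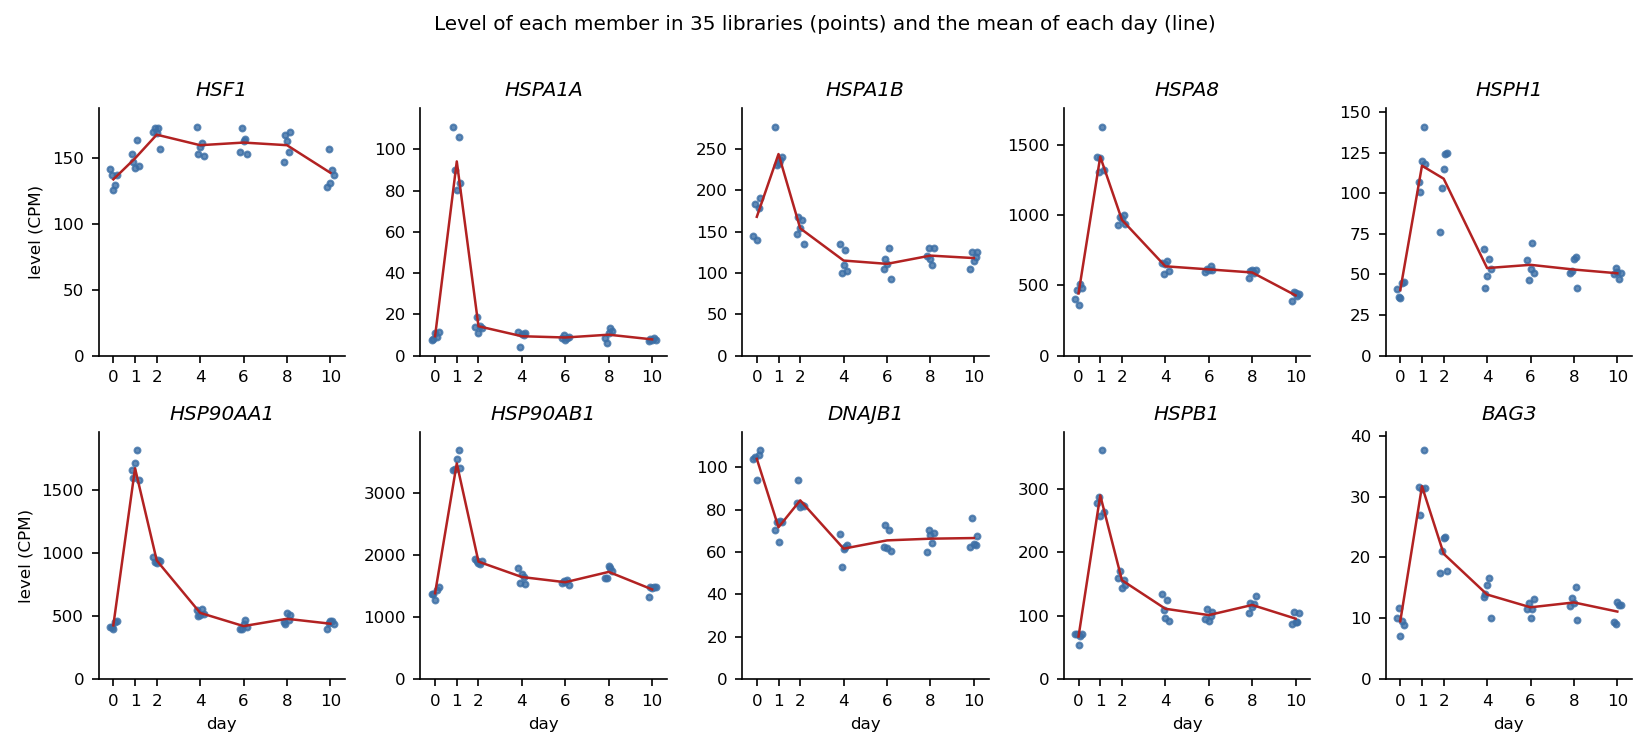
Level in CPM (vertical axes, linear and starting at 0, scaled for each gene) of the 10 members against day (horizontal axes), with a point for each of the 35 libraries and a line through the daily means. Most members peak on day 1 and decline by day 4, whereas DNAJB1 lies below its day 0 libraries on every later day and HSF1 moves within 126 to 174 CPM.

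The inducible HSP70 genes HSPA1A and HSPA1B lie side by side on chromosome 6 (GRCh38, 31815543 to 31817946 and 31827738 to 31830254, plus strand) and encode nearly the same protein. In HSPA1A, 76.0% of the 31-base words of its transcripts also occur in HSPA1B or another coding gene, and in HSPA1B 73.3% do, so the division of reads between them is uncertain. HSPA1A stood at 7.59, 8.25, 10.7, 9.02 and 11.2 CPM in the 5 libraries of day 0 and at 111, 89.9, 80.1, 106 and 83.7 CPM in those of day 1. Every day 1 library was thus several-fold above every day 0 library, with no overlap. The log2 fold change was 3.34 ± 0.17 (SE; adjusted p = 4.48e-21, edgeR). HSPA1B stood at 145, 183, 140, 179 and 191 CPM on day 0 and at 277, 231, 233, 237 and 240 CPM on day 1. Its groups did not overlap either, but its log2 fold change was 0.54 ± 0.09 (SE; adjusted p = 6.58e-07, edgeR).

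Because the split between the 2 genes is uncertain, their counts were also summed before the fit. The sum does not settle reads shared with a long non-coding gene that overlaps HSPA1B on the same strand over 1421 bases. Of the 31-base words, 35.9% in HSPA1A and 35.8% in HSPA1B also occur in that gene. The sum stood at 152, 192, 151, 188 and 203 CPM on day 0 and at 388, 321, 313, 343 and 323 CPM on day 1, a rise of 1.91-fold (log2 fold change 0.93 ± 0.08 SE, adjusted p = 8.99e-13, edgeR). HSPA1A made up 4.30% to 7.13% of the sum on day 0, 25.6% to 30.8% on day 1 and 6.60% to 10.0% on day 2. The log2 ratio of HSPA1A against HSPA1B went from -4.12 ± 0.29 on day 0 to -1.38 ± 0.15 on day 1 (SD, n = 5; exact permutation test, adjusted p = 0.013). HSPA1A was back at 10.9 to 18.7 CPM on day 2, still higher than on day 0 by 0.62 ± 0.18 on the log2 scale (SE; adjusted p = 0.00364, edgeR), and was not called on any later day. HSPA1B, in contrast, was below every day 0 library in all 5 libraries of each of days 4, 6, 8 and 10. Its level was 100 to 135 CPM on day 4 and 105 to 125 CPM on day 10, and on day 10 it had fallen by 0.51 ± 0.09 on the log2 scale (SE; adjusted p = 9.78e-06, edgeR). In the fit over every biotype described below, HSPA1B was also called lower on days 4, 6, 8 and 10. Its levels there overlapped day 0, at 79.5 to 115 CPM on day 4 beside 101 to 149 CPM on day 0. The summed pair followed the same course, at log2 fold changes between -0.56 (day 6) and -0.43 (day 8) from day 4 on, each called lower.

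HSPA8, the constitutive HSP70 (chromosome 11, 123057489 to 123063230, minus strand), also rose, and for longer. Its level was 402, 463, 357, 510 and 478 CPM on day 0 and 1411, 1308, 1408, 1628 and 1318 CPM on day 1. All day 1 libraries exceeded 2 times the highest day 0 library, and the log2 fold change was 1.68 ± 0.06 (SE; adjusted p = 3.30e-24, edgeR). The daily level then went down in order, 927 to 1003 CPM on day 2, 583 to 676 on day 4, 594 to 637 on day 6, 552 to 610 on day 8 and 390 to 449 on day 10. Days 4, 6 and 8 overlapped one another and remained above all day 0 libraries, while day 10 lay within the day 0 range (log2 fold change -0.05 ± 0.07 SE, adjusted p = 0.668, edgeR). Transcripts of HSPA8 share 27.0% of their 31-base words with other genes but 0 with coding transcripts of other genes.

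The summed inducible pair thus did not keep pace with HSPA8. The log2 ratio of HSPA1A plus HSPA1B against HSPA8 was -1.32 ± 0.09 on day 0, -2.07 ± 0.15 on day 1 and -2.52 ± 0.09 on day 2 (SD, n = 5). It was lower than on day 0 in all 5 libraries of every later day, with the smallest difference, 0.45 on the log2 scale, on day 10 and the largest, 1.21, on day 2. Each of these 6 differences had an adjusted p of 0.013 in exact two-sided permutation tests, adjusted over 18 tests of 3 ratios on 6 days, where 5 against 5 libraries cannot give an unadjusted p below 0.00794. When medians were compared in place of means, none of the 18 differences of this or the other ratios was called (lowest adjusted p = 0.0659, exact permutation test). Several relabelings of the 5 against 5 libraries keep the same medians, so the smallest p of that test is larger than with means. Groups without overlap could thus stay uncalled too, and the median test does not decide whether these ratios differ.

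HSPH1, the HSP110 that exchanges nucleotide on HSP70 (chromosome 13, 31134973 to 31162388, minus strand), kept its raised level into day 2. It stood at 40.8, 35.9, 35.2, 44.5 and 45.2 CPM on day 0, at 107, 101, 120, 141 and 118 CPM on day 1 and at 75.9, 103, 115, 124 and 125 CPM on day 2. Days 1 and 2 overlapped, and both were above all day 0 libraries. The log2 fold change was 1.54 ± 0.12 on day 1 and 1.43 ± 0.12 on day 2 (SE; adjusted p = 1.48e-14 and 1.59e-13, edgeR), and the difference between these 2 days was -0.11 ± 0.11 (SE; adjusted p = 0.453, edgeR). HSPH1 was still called higher on day 10, at 47.2 to 53.7 CPM (log2 fold change 0.33 ± 0.13 SE, adjusted p = 0.039, edgeR). That call was lost when any 1 of 6 libraries was left out: replicates 1, 2 and 3 of day 0 and replicates 2, 3 and 5 of day 10, with adjusted p up to 0.103 without replicate 3 of day 0.

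Of the HSP90 pair, HSP90AA1 is the stress-inducible gene (chromosome 14, 102080742 to 102139699, minus strand) and HSP90AB1 the constitutive one (chromosome 6, 44246166 to 44253888, plus strand). HSP90AA1 went from 410, 415, 397, 453 and 458 CPM on day 0 to 1664, 1597, 1714, 1817 and 1580 CPM on day 1. HSP90AB1 went from 1377, 1370, 1269, 1433 and 1483 CPM to 3379, 3388, 3546, 3693 and 3409 CPM. The groups did not overlap for either gene. The log2 fold change was 1.97 ± 0.05 for HSP90AA1 and 1.33 ± 0.05 for HSP90AB1 (SE; adjusted p = 6.70e-29 and 1.72e-25, edgeR). Their log2 ratio moved from -1.70 ± 0.03 on day 0 to -1.06 ± 0.04 on day 1 and -1.01 ± 0.03 on day 2 (SD, n = 5; exact permutation test, adjusted p = 0.013 for each day), so HSP90AA1 changed more than HSP90AB1 within the same libraries.

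Later the balance within the HSP90 pair moved the other way. HSP90AA1 was at 499 to 556 CPM on day 4 and at 394 to 466 CPM on day 6, a range that overlapped day 0. HSP90AB1 was at 1521 to 1607 CPM on day 6, above all day 0 libraries, and at 1635 to 1829 CPM on day 8. The log2 ratio on day 6 was -1.90 ± 0.09 and on day 8 -1.85 ± 0.06, below all day 0 libraries (SD, n = 5; exact permutation test, adjusted p = 0.013 for each). By day 10 it was -1.72 ± 0.04 (exact permutation test, adjusted p = 0.468). On day 8 HSP90AA1 was called higher than on day 0 (0.17 ± 0.05, log2, SE; adjusted p = 0.0124, edgeR), but not without replicate 3 of day 8 (adjusted p = 0.0637, edgeR). Neither gene was called on day 10, with log2 fold changes of 0.05 ± 0.05 for HSP90AA1 and 0.06 ± 0.05 for HSP90AB1 (SE). Transcripts of HSP90AA1 and HSP90AB1 share 32.1% and 35.7% of their 31-base words with other genes, but 0 with coding transcripts of other genes.

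**Figure D2:**
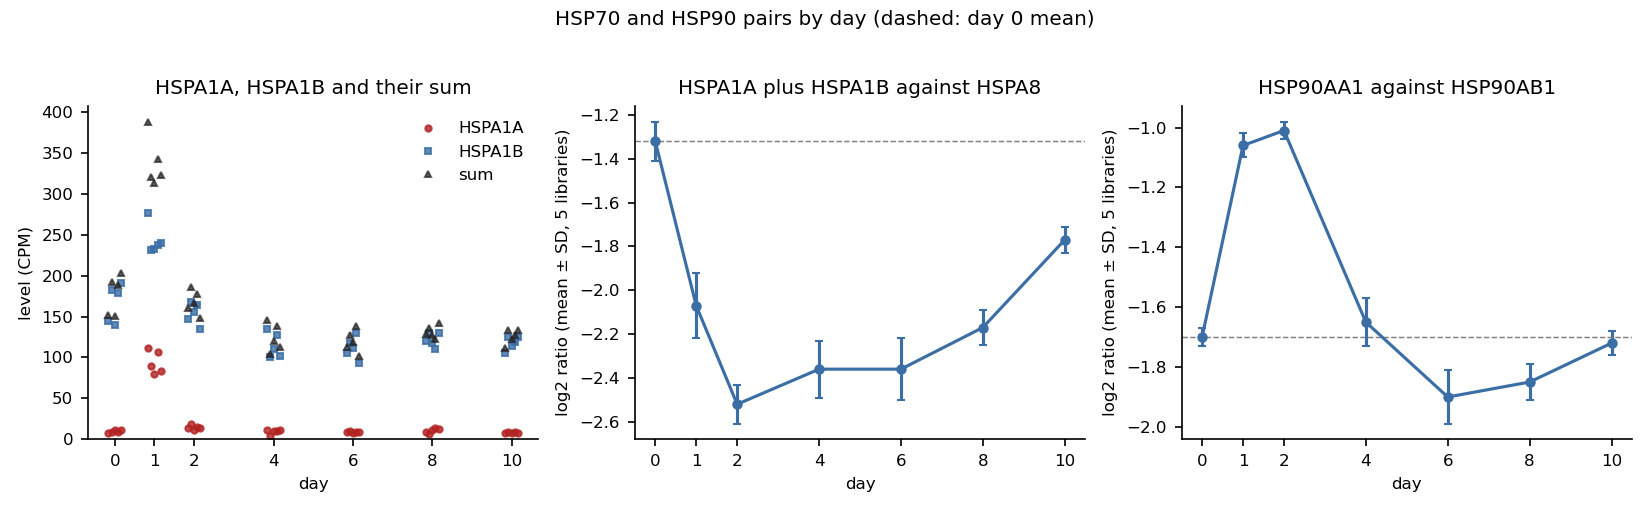
HSP70 and HSP90 pairs by day (horizontal axes). The left panel gives CPM of HSPA1A, HSPA1B and their sum in each of the 35 libraries, and the other 2 panels give log2 ratios as means ± SD of 5 libraries with the day 0 mean dashed: the HSP70 ratio is lowest on day 2 at -2.52 and the HSP90 ratio is highest on day 2 at -1.01.

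DNAJB1, the J protein that directs HSP70 to substrates, was the exception among the members. Its level was 104, 105, 94.2, 106 and 108 CPM on day 0 and 70.3, 74.4, 64.9, 74.8 and 74.1 CPM on day 1. All day 1 libraries were below all day 0 libraries, and the level fell by 0.53 ± 0.07 on the log2 scale (SE; adjusted p = 4.07e-09, edgeR). On day 2 it stood higher again, at 81.1 to 93.9 CPM, above every day 1 library but below every day 0 library. In the fit over every biotype described below, DNAJB1 was at -0.11 ± 0.09 on day 2 (log2, SE; adjusted p = 0.462, edgeR). The median coding entry there lay 0.192 above 0, and DNAJB1 was not called. From day 4 on it ranged from 52.8 to 76.0 CPM, days that overlapped one another, and on day 10 it was lower than on day 0 by 0.63 ± 0.07 (log2, SE; adjusted p = 2.41e-10, edgeR). DNAJB1 (chromosome 19, 14514769 to 14560391, minus strand) overlaps TECR on the opposite strand over 43307 bases. The libraries were made with a directional kit, but the strand setting of the pseudoalignment is not given in the sources used here, so reads of the 2 genes may not have been told apart. The DNAJB1 window shown above holds matches at 2 places.

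BAG3, which couples HSP70 to autophagy and works with small heat shock proteins (chromosome 10, 119651380 to 119677819, plus strand), rested on 40 to 219 counts per library. It stood at 10.1, 11.7, 7.15, 9.62 and 8.86 CPM on day 0 and at 31.6, 26.9, 31.2, 37.6 and 31.4 CPM on day 1. The groups did not overlap, and the log2 fold change was 1.73 ± 0.14 (SE; adjusted p = 1.62e-14, edgeR). It was 17.4 to 23.3 CPM on day 2 and 10.0 to 16.6 CPM on day 4, both called higher than day 0. Later log2 fold changes were 0.30 ± 0.15 for day 6, 0.41 ± 0.15 for day 8 and 0.21 ± 0.15 for day 10 (SE), of which only that of day 8 was called (adjusted p = 0.0228, edgeR). That of day 8 was not called without replicate 4 of day 8 (adjusted p = 0.0733, edgeR) or replicate 3 of day 0 (adjusted p = 0.0903, edgeR), and that of day 6 was called without replicate 2 of day 0 (adjusted p = 0.0431, edgeR).

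HSPB1, the small heat shock protein also called HSP27 (chromosome 7, 76302673 to 76304295, plus strand), was raised on every day after the pulse. It was at 71.3, 71.4, 53.8, 68.7 and 70.6 CPM on day 0 and at 278, 287, 258, 361 and 264 CPM on day 1, which gave a log2 fold change of 2.11 ± 0.09 (SE; adjusted p = 2.48e-22, edgeR). The level was 143 to 171 CPM on day 2. The other days followed in the order 8, 4, 6 and 10, with means of 117, 111, 101 and 95.4 CPM, and neighbours in this order overlapped. All 5 libraries of each day lay above all day 0 libraries, and on day 10 the log2 fold change was still 0.51 ± 0.10 (SE; adjusted p = 5.31e-05, edgeR). HSPB1 and HSPH1 were the 2 members called higher on day 10.

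HSF1 itself, on chromosome 8 (144291591 to 144314720, plus strand), changed least of the 10 members on day 1. It stood at 142, 137, 126, 130 and 137 CPM on day 0, at 153, 147, 143, 164 and 144 CPM on day 1 and at 170, 173, 169, 173 and 157 CPM on day 2. Day 1 lay just above day 0, and day 2 lay clearly above it without overlap. The log2 fold change was 0.16 ± 0.06 on day 1 (SE; adjusted p = 0.0134, edgeR), which was not called without replicate 4 of day 1 (0.13, adjusted p = 0.0627, edgeR), and 0.32 ± 0.05 on day 2 (SE; adjusted p = 3.04e-06, edgeR). HSF1 stayed higher than day 0 on days 4, 6 and 8, with log2 fold changes of 0.25 to 0.27, and was 128 to 157 CPM on day 10 (log2 fold change 0.05 ± 0.06 SE, adjusted p = 0.581, edgeR). When counts were summed over all transcript biotypes of each gene, the day 1 value was 0.01 (adjusted p = 0.970, edgeR) and the day 2 value 0.14 (adjusted p = 0.0181, edgeR). The values of days 4, 6 and 8 were then 0.12 to 0.14, and that of day 8 was no longer called (0.12, adjusted p = 0.0562, edgeR).

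**Figure D3:**
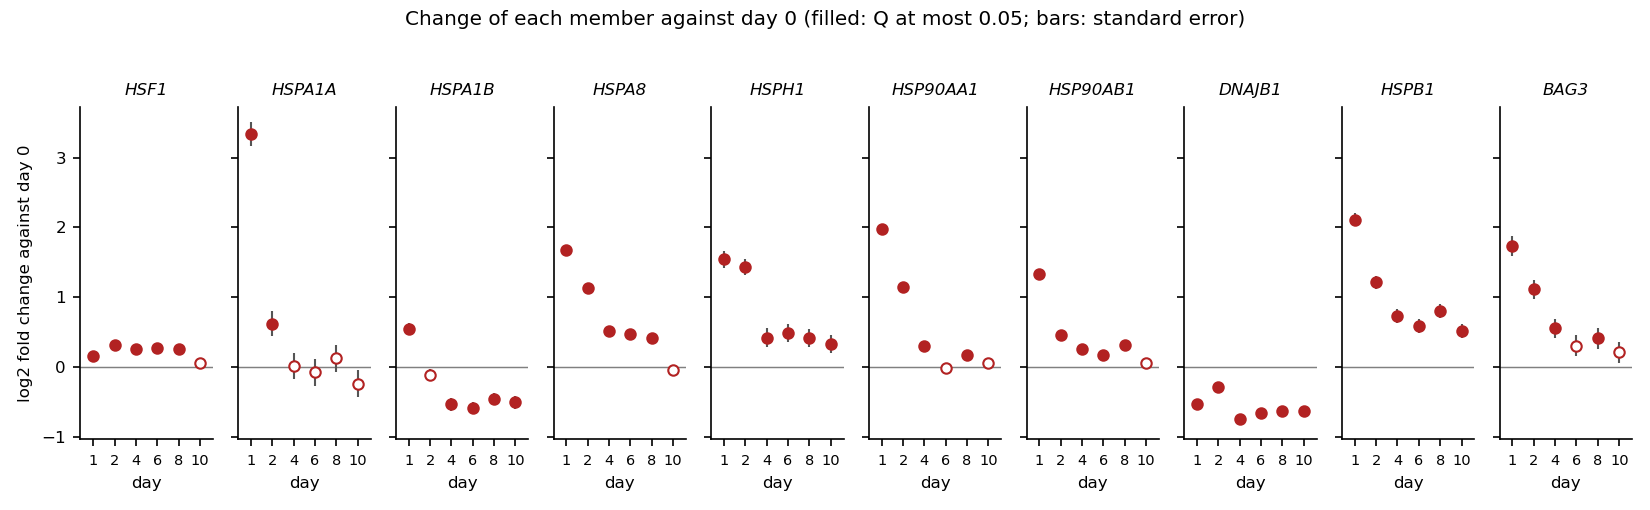
Log2 fold change against day 0 (vertical axis) of the 10 members on days 1, 2, 4, 6, 8 and 10 (horizontal axes), with standard errors as bars and filled points for Q ≤ 0.05. HSPA1A reaches 3.34 on day 1 and is near 0 from day 4, HSPB1 stays above 0 on all days, and DNAJB1 and, from day 4, HSPA1B stay below 0.

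Fewer members were raised on later days, although not in a steady order. On day 2, 8 members were higher than on day 0 (23.2% of all entries) and 1 was lower (24.4% of entries), and 5 members exceeded a fold change of 2 (6.32% of entries), with 0 lower by that cutoff (8.94%). Those 5 were HSPA8, HSPH1, HSP90AA1, HSPB1 and BAG3, at 2.16-fold to 2.70-fold. On day 4, 7 were higher (19% of entries) and 2 lower (20.1%), on day 6, 5 higher (17.5%) and 2 lower (17%), and on day 8, 7 higher (18.2%) and 2 lower (18.6%). The 2 lower members were HSPA1B and DNAJB1 on each of these days. On day 10, 2 were higher (16.1% of entries) and the same 2 lower (15.8%), shares close to the background, and the median log2 fold change of the members was 0.05. No member passed a fold change of 2 after day 2, where 4.12% of entries were higher and 5.29% lower on day 4, 3.18% and 3.52% on day 6, 3.6% and 4.58% on day 8 and 2.41% and 3.52% on day 10.

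Comparison of consecutive time points placed most of the decline between days 1 and 4. From day 1 to day 2, 7 members fell (19.4% of entries) and 2, HSF1 and DNAJB1, rose (20.2% of entries). The steepest fall was that of HSPA1A, by 2.72 ± 0.15 on the log2 scale (SE; adjusted p = 5.86e-19, edgeR). From day 2 to day 4, 9 members fell (16.7% of entries) and 0 rose (13.9% of entries), in edgeR with 0 rising at an unadjusted p under 0.05 and 0 in DESeq2. The largest fall of this step was that of HSPH1, by 1.01 ± 0.12 (log2, SE; adjusted p = 2.65e-09, edgeR). HSPA1A fell by 0.61 ± 0.18 in this step (log2, SE; adjusted p = 0.00615, edgeR), a call lost without replicate 2 of day 4 (adjusted p = 0.0613, edgeR) or replicate 2 of day 2 (adjusted p = 0.0626, edgeR).

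Between days 4 and 8 the members were nearly level. From day 4 to day 6 HSP90AA1 was the 1 member that fell (5.98% of entries), by 0.32 ± 0.05 (log2, SE; adjusted p = 4.07e-05, edgeR), and 0 rose (6.09% of entries), with 0 at an unadjusted p under 0.05 and 0 in DESeq2. From day 6 to day 8, 0 members were called higher (1.03% of entries) and 0 lower (1.53% of entries) by edgeR. At an unadjusted p under 0.05, 3 members were higher on day 8, HSP90AA1, HSP90AB1 and HSPB1, and DESeq2 called 2 of them, HSP90AA1 and HSP90AB1, while 0 were lower by either measure. From day 8 to day 10 the members HSF1, HSPA8, HSP90AB1 and HSPB1 fell, 4 of 10 against 4.97% of entries, and 0 rose against 5.08% of entries (0 at an unadjusted p under 0.05 and 0 in DESeq2). The fall of HSF1, by 0.21 ± 0.05 (log2, SE; adjusted p = 0.00855, edgeR), was not called in a fit of these 2 days alone (adjusted p = 0.0554, edgeR) or with counts summed over biotypes (-0.14, adjusted p = 0.0686, edgeR). HSPA8 fell most in this step, by 0.47 ± 0.06 (log2, SE; adjusted p = 1.27e-06, edgeR). The fall of HSPB1, by 0.30 ± 0.09 (log2, SE; adjusted p = 0.0308, edgeR), was not called when replicate 1, 3 or 4 of day 10 or replicate 2 or 5 of day 8 was left out, with adjusted p between 0.0589 and 0.0869.

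The other genes of the cytosolic heat shock system were taken as 6 lists of 59 genes by function. Of the 58 with a count, 39 were higher (25.4% of all entries) and 8 lower (27.3% of entries) on day 1. On day 10, 12 were higher (16.1% of entries) and 8 lower (15.8%), shares near those of all entries when the 6 lists were pooled. The HSP90 cochaperones held 7 of these 12. On day 10, 7 of their 16 genes were higher and 1 lower, with a median log2 fold change of 0.19. HSP90 cochaperones moved most uniformly, with 15 of 16 higher and 0 lower on day 1, a median log2 fold change of 0.90 among 16 passing a filter on low counts, beside 0.01 for all entries that passed it. CHORDC1, a cochaperone that binds the nucleotide-binding domain of HSP90, went from 17.0 to 21.6 CPM on day 0 to 76.0 to 81.1 CPM on day 1 and was still at 40.6 to 50.1 CPM on day 10. Its log2 fold change was 2.07 ± 0.10 on day 1 and 1.31 ± 0.10 on day 10 (SE; adjusted p = 3.27e-21 and 1.49e-13, edgeR). SGTA, which guards hydrophobic client proteins, was the list's lowest on both days, at 0.06 ± 0.06 on day 1 (adjusted p = 0.417, edgeR) and -0.24 ± 0.06 on day 10 (SE).

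Among the BAG proteins and other HSP70 cochaperones, 7 of 8 were higher (25.4% of all entries) and 1 lower (27.3% of entries) on day 1. BAG2, an exchange factor that inhibits the ligase CHIP, went from 15.8 to 22.6 CPM to 71.0 to 78.9 CPM (log2 fold change 1.94 ± 0.09 SE, adjusted p = 8.84e-22, edgeR), and BAG5 fell by 0.27 ± 0.06 (log2, SE; adjusted p = 0.000258, edgeR). On day 10 BAG4 had the highest value of this list, 0.51 ± 0.14, and BAG5 the lowest, -0.52 ± 0.06 (log2, SE). Of the other J proteins, 8 of 13 were higher and 1 lower on day 1, beside the same 25.4% and 27.3% of all entries. DNAJC2, a J protein of the ribosome-associated complex, went from 45.0 to 50.8 CPM to 120 to 139 CPM (log2 fold change 1.41 ± 0.08 SE, adjusted p = 7.24e-19, edgeR). DNAJB5, the relative of DNAJB1 with the lowest value of that list, was at -0.75 ± 0.35 (SE; adjusted p = 0.0665, edgeR), and DNAJC9, a histone cochaperone, fell by 0.30 ± 0.09 (log2, SE; adjusted p = 0.00526, edgeR). On day 10 the range ran from DNAJC9 at -0.36 ± 0.09 to DNAJB4 at 0.78 ± 0.18 (log2, SE).

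Of the other HSP70 and HSP110 genes, 4 of 6 were higher (25.4% of all entries) and 1 lower (27.3% of entries) on day 1. HSPA6, a strictly inducible HSP70, summed to 31 counts over the 5 libraries of day 0 and 483 over those of day 1, a ratio of 14.8 per depth (95% interval 10.3 to 22.0, covering counting error only). On day 2 its ratio to day 0 was 1.02 (0.622 to 1.68). HSPA1L, the testis-enriched neighbour of HSPA1A, fell by 0.88 ± 0.33 (log2, SE; adjusted p = 0.0217, edgeR) from 1.43 to 2.40 CPM on day 0. Among the small heat shock proteins 3 of the 8 with a count were higher and 1 lower, counts not far from these shares of all entries. HSPB8, the partner of BAG3, had 0 counts in all day 0 libraries and 98 counts over those of day 1. This is 31-fold higher against a floor of 3 counts over the 5 libraries of day 0. The lower 95% limit of its ratio was 24.7, covering counting error only. HSPB7, a small heat shock protein best known from heart muscle, went from 340 counts to 45, a ratio of 0.125 (95% interval 0.0898 to 0.172), and was at 0.943 of day 0 on day 10.

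Of the factors related to HSF1, 2 of 7 were higher on day 1, a share near the 25.4% of all entries, and 4 were lower, where 27.3% of entries were, with a median log2 fold change of -0.37 among 5 passing the filter. HSF2, which forms mixed trimers with HSF1, went from 5.39 to 10.2 CPM to 13.7 to 16.6 CPM (log2 fold change 0.99 ± 0.16 SE, adjusted p = 6.38e-07, edgeR) and was back at 6.92 to 10.0 CPM on day 2. HSF4, the factor of the lens, fell by 2.65 ± 0.30 (log2, SE; adjusted p = 1.81e-10, edgeR), from 37.5 to 65.1 CPM to 5.58 to 10.3 CPM. IER5, an immediate-early gene whose protein promotes the activity of HSF1, was at 392 to 431 CPM on day 0, 99.6 to 106 CPM on day 1 and 100 to 115 CPM on day 10. Its log2 fold change was thus -1.99 ± 0.07 on day 1 and -1.93 ± 0.06 on day 10 (SE; adjusted p = 1.40e-26 and 3.15e-25, edgeR). HSBP1, which binds HSF1 trimers, rose by 0.34 ± 0.11 on day 1 (log2, SE; adjusted p = 0.0103, edgeR), and SIRT1, the deacetylase of HSF1, fell by 0.37 ± 0.13 (log2, SE; adjusted p = 0.0181, edgeR). HSF2BP fell as well but rested on 37 counts over day 0 and 12 over day 1, and HSF5 had 2 counts over day 0 and 0 over day 1.

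Chaperones of other compartments were set beside the cytosolic ones. ER chaperones went the other way on day 1, with 11 of 12 lower (27.3% of all entries) and 0 higher (25.4% of entries) and a median log2 fold change of -0.64. DNAJB9, a J protein of the ER induced by the unfolded protein response, fell by 1.69 ± 0.09 (log2, SE; adjusted p = 1.01e-19, edgeR), from 159 to 189 CPM to 46.5 to 59.9 CPM. CALR, the lectin chaperone calreticulin, had the smallest change of this list, -0.04 ± 0.05 (SE; adjusted p = 0.499, edgeR). On day 10 PDIA6 was highest in this list, at 0.08 ± 0.05 (log2, SE), and 7 of 12 were still lower, where 15.8% of entries were. Of the mitochondrial chaperones 5 of 8 were higher on day 1 (25.4% of entries) and 2 lower, a share near the 27.3% of entries, from HSPE1 at 1.03 ± 0.07 to GRPEL2 at -0.70 ± 0.16 (log2, SE). On day 10 GRPEL2 was the highest of these at 0.53 ± 0.14 and HSPA9 the lowest at -0.64 ± 0.04 (log2, SE).

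**Figure D4:**
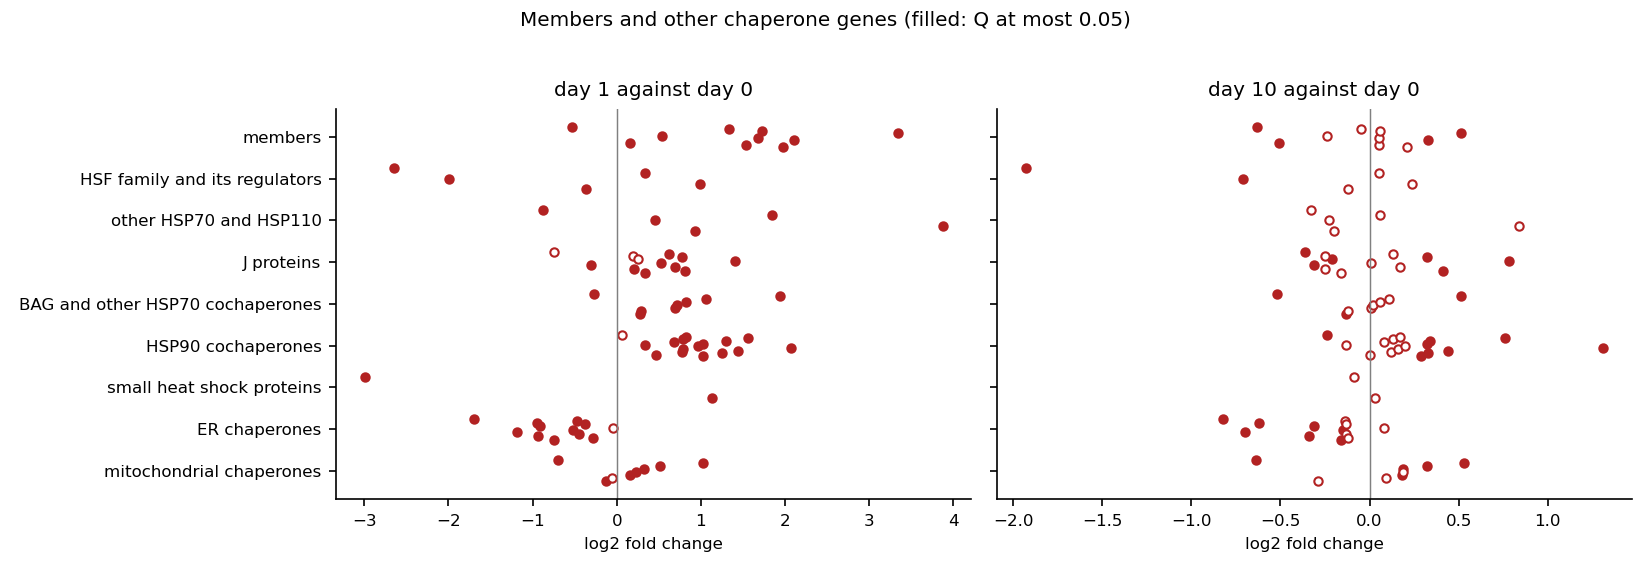
Log2 fold change on day 1 (left) and day 10 (right) against day 0 (horizontal axes) for the members and 8 lists of chaperone genes (rows), with a point for each gene that passed the filter on low counts, filled for Q ≤ 0.05. HSPB8 is left out because its day 0 counts were 0; on day 1 the HSP90 cochaperones lie at or above 0.06 and the ER chaperones at or below -0.04.

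The table counts each transcript biotype of a gene in its own entry, which allowed non-coding forms of the members to be followed. These counts are estimates that divide reads among transcripts of the same gene, which can share sequence. Words shared within a gene were not counted, so the division between entries is uncertain. The standard errors and p-values do not include this uncertainty. The members had 10 such entries, of which 8 had a mean of at least 10 counts per library. They were tested in a fit over the 65717 entries of every biotype with a count. In this fit the median coding entry that passed the filter lay 0.216 above 0 on day 1 on the log2 scale, so values are read beside those of the coding entry from the same fit. On day 1, 2 of the 8 were higher, where 10.6% of all entries were, and 1 was lower, where 11.3% were. On day 2, 3 were higher (9.6%) and 1 lower (8.78%), on day 4, 2 higher (7.55%) and 4 lower (6.63%), and on day 6, 1 higher (6.26%) and 4 lower (5.24%). On day 8, 2 were higher (6.87%) and 4 lower (5.9%), and on day 10, 1 was higher (5.89%) and 1 lower (4.41%).

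No retained-intron form was called higher on day 1, while the coding forms were. The HSF1 retained-intron entry fell by 0.78 ± 0.14 on day 1 (log2, SE; adjusted p = 2.86e-05, edgeR), while its coding entry rose by 0.37 ± 0.07 in the same fit (log2, SE; adjusted p = 0.000102, edgeR). Coding transcripts made up 69.8% to 74.7% of all HSF1 counts on day 0, 83.0% to 87.6% on day 1 and 75.1% to 84.0% on day 10. The retained-intron entry of HSPA8 was at 0.18 ± 0.25 on day 1 (SE; adjusted p = 0.71, edgeR) beside 1.88 ± 0.08 for its coding entry, and on day 8 had fallen by 1.35 ± 0.26 (log2, SE; adjusted p = 0.000203, edgeR). The retained-intron entry of HSPH1 was at 6.09 ± 2.09 CPM on day 0 and 4.82 ± 1.63 CPM on day 1 (SD, n = 5), a log2 fold change of -0.33 ± 0.37 (SE; adjusted p = 0.601, edgeR).

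Transcripts annotated for nonsense-mediated decay, the pathway that degrades mRNA with an early stop codon, differed between members. In HSPH1 this entry rose with the coding entry and by more, with log2 fold changes of 2.89 ± 0.31 on day 1 and 1.56 ± 0.32 on day 10 (SE; adjusted p = 3.82e-10 and 0.000359, edgeR), beside 1.75 ± 0.13 and 0.42 ± 0.13 for the coding entry. The difference between the entries was not tested. The share of this entry in HSPH1 counts varied widely within a day, from 5.81% to 29.6% on day 0 and from 19.9% to 39.5% on day 1. In HSPB1 the corresponding entry was at -0.28 ± 0.12 on day 1 (SE; adjusted p = 0.0829, edgeR) while the coding entry rose by 2.31 ± 0.11. Its share of HSPB1 counts was 22.6% to 29.2% on day 0, 3.48% to 6.75% on day 1 and 17.8% to 24.5% on day 10. In HSP90AA1 it was at 0.02 ± 0.35 on day 1 (SE; adjusted p = 1, edgeR) and on day 8 had fallen by 1.48 ± 0.37 (log2, SE; adjusted p = 0.0032, edgeR). The HSF1 entry of this kind was called lower on day 6 alone, and the processed transcript of HSPA8 was called higher on days 1 and 2.

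**Figure D5:**
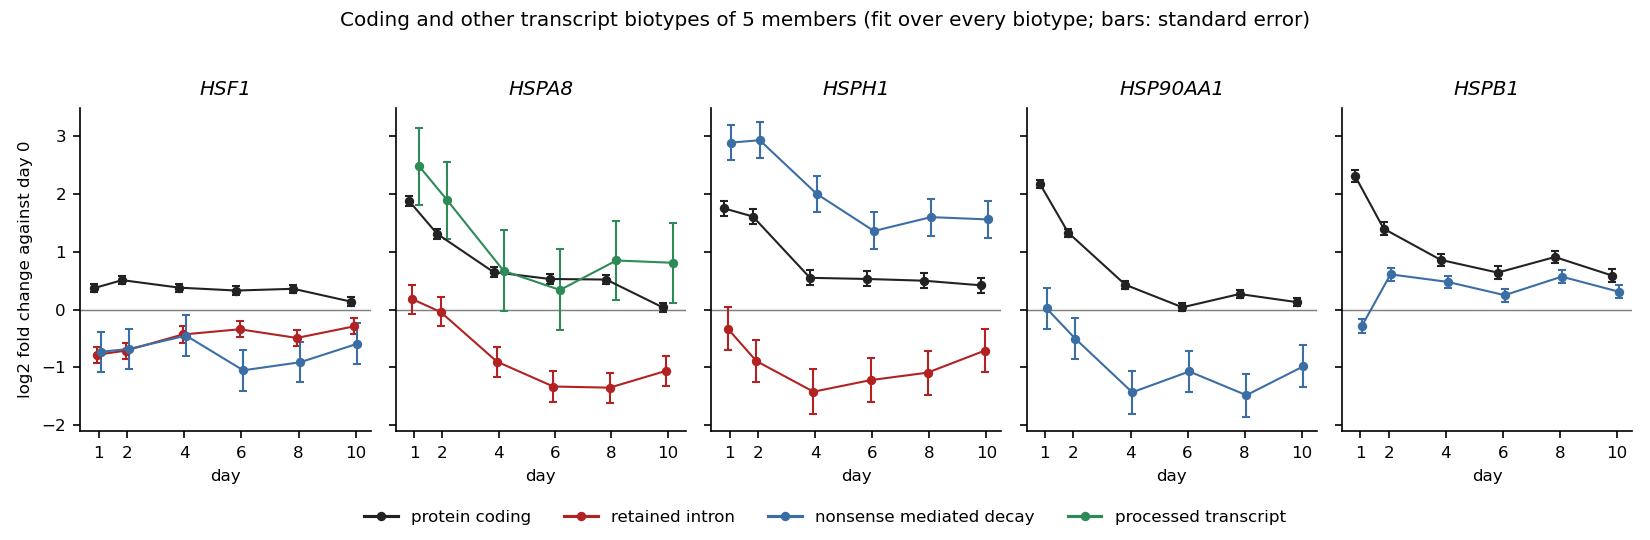
Log2 fold change against day 0 (vertical axis) of coding and other transcript biotypes of HSF1, HSPA8, HSPH1, HSP90AA1 and HSPB1 on days 1 to 10 (horizontal axes), from the fit over every biotype, with standard errors as bars. Coding entries peak on day 1 or 2, retained-intron entries of HSF1, HSPA8 and HSPH1 lie at or below 0.18, and the nonsense-mediated decay entry of HSPH1 lies above its coding entry.

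As a description, the coding entries whose log2 CPM followed the summed HSPA1 pair most closely over the 35 libraries were DYNLL2 (r = 0.967), PITHD1 (0.953), USP14 (0.946), GPATCH3 (0.944) and PCDH1 (0.944), of 12291 compared by Pearson correlation. USP14, a deubiquitinase of the proteasome, rose by 1.28 ± 0.05 on day 1 and was at -0.16 ± 0.06 on day 10 (log2, SE). DYNLL2, a dynein light chain, rose by 0.65 ± 0.05 on day 1 and fell by 0.37 ± 0.06 on day 10 (log2, SE), and PITHD1 rose by 0.59 ± 0.06 and fell by 0.47 ± 0.06. The entries most like HSF1 were NDE1 (r = 0.831), CDKN1C (0.800), MMS19 (0.799), CD300A (0.797) and FAM162A (0.796). All 5 were higher on both day 1 and day 2, with CDKN1C, a cyclin-dependent kinase inhibitor, at 1.25 ± 0.15 on day 1 and 1.98 ± 0.15 on day 2 (log2, SE). The libraries of a day share their treatment time, so these correlations rest largely on the 7 daily levels.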

How the data were processed

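RNA of RPMI-8226 cells was sequenced in 35 libraries. The authors deposited estimated counts, one whole number per symbol and transcript biotype in each library, not scaled to library size. Reads had been pseudo-aligned with kallisto 0.44.0 (GENCODE transcripts, GRCh38.p12 per the labels) with a correction for GC content, and tximport had summarized transcripts to genes.

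The 17999 of 19665 protein-coding entries that had any count were tested with the quasi-likelihood test of edgeR 4.0.16 in R 4.3.3 (TMM factors 0.929 to 1.08). All libraries entered the model, which held the day and nothing else, p-values were adjusted by Benjamini-Hochberg, and calls were made at Q ≤ 0.05. Levels are CPM after TMM scaling, except those of the cell type markers, which were not scaled with TMM factors. Ratios within a library used log2 values with a prior count of 2 and exact two-sided permutation tests (scipy 1.17.1). Positions and 31-base words came from GENCODE, promoters from RefSeq. Library depth gave members 26 to 758 counts per library for HSPA1A, 40 to 219 for BAG3 and at least 197 for the others.

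Members and lists were chosen with earlier results of these data known. Named genes were the members, the highest and lowest genes of each list on days 1 and 10 among those passing filterByExpr, the whole HSF list, the 5 entries most like HSF1 and the summed HSPA1 pair, and non-coding entries of members with a mean of at least 10 counts. Alternatives were filterByExpr, RLE factors, no factors, the replicate number as a block, only the 2 days compared, DESeq2 1.42.0, Q ≤ 0.01, a fold change above 2, HSPA1A and HSPA1B summed, counts summed over biotypes, each library left out in turn and, for ratios, a prior count of 0.5 and medians. The labels give no sequencing batch or date.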

Additional observations from a re-analysis of the deposited data

Results flagged for a closer look

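In 8 of 70 groups of 5 libraries, 1 per member and day, a single library stood apart from the other four by more than Dixon's 95% limit allows, where chance flags about 1 group in 20. HSF1 was at 157 CPM in replicate 5 of day 2, against 169 to 173 CPM in the others. HSPA1A was at 4.10 CPM in replicate 2 of day 4, against 9.98 to 11.3 CPM. HSPA1B was at 277 CPM in replicate 1 of day 1, against 231 to 240 CPM. HSP90AB1 was at 1331 CPM in replicate 1 of day 10, against 1465 to 1484 CPM. DNAJB1 was at 94.2 CPM in replicate 3 of day 0, against 104 to 108 CPM, and at 93.9 CPM in replicate 2 of day 2, against 81.1 to 83.0 CPM. HSPB1 was at 53.8 CPM in replicate 3 of day 0, against 68.7 to 71.4 CPM, and at 361 CPM in replicate 4 of day 1, against 258 to 287 CPM. Replicate 3 of day 0 was the library that stood apart for both DNAJB1 and HSPB1.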

How the results depend on the processing

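The counts of members called on days 1 to 10 against day 0 stayed within 1.5 times their reported values under filterByExpr, RLE factors, no factors, the replicate block, a fit of the 2 days alone, DESeq2, the summed HSPA1 pair and summed biotypes. A fold change above 2 left 5 members higher on day 2, 0 on days 4, 6, 8 and 10, 0 lower on any of the 6 days, 1 lower and 0 higher between days 1 and 2, 1 lower between days 2 and 4, and 0 lower in the steps to days 6 and 10. Q ≤ 0.01 left 1 member higher on day 10 and 1 between days 1 and 2. Without factors 2 members were lower between days 4 and 6. From day 6 to day 8 the members called higher numbered 2 under filterByExpr, RLE factors, DESeq2 and summed biotypes, and 1 without factors. Leaving out single libraries gave 0 to 2 members higher in that step and 1 to 2 on day 10.

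Among the pathway lists a fold change above 2 left 15 higher and 4 lower on day 1, 8 and 3 on day 2, 1 and 3 on day 4, 1 and 2 on day 6, 2 and 1 on day 8 and 2 and 1 on day 10. Without factors 26 were higher on day 4. Scaling without factors moved the median of entries passing the filter on days 1, 2 and 4 to 0.124, 0.132 and 0.106 (log2). Of the non-coding entries, 2 were lower on day 1 under filterByExpr and without factors, while filterByExpr also gave 2 lower for day 2, and for day 10 both 2 lower and 2 higher.

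Differences of medians were not called for any ratio: 0.65, 0.68, -0.20 and -0.15 for HSP90AA1 against HSP90AB1 on days 1, 2, 6 and 8, -0.76, -1.26, -1.15, -1.09, -0.88 and -0.48 for the HSPA1 pair against HSPA8 on days 1 to 10, and 2.84, 0.83 and 0.65 for HSPA1A against HSPA1B on days 1, 2 and 6. Several relabelings keep the same medians, so this test cannot give as small a p as that of means, even for groups without overlap. Without single libraries the ratio of HSPA1A against HSPA1B ranged from 0.36 to 0.69 (day 4), 0.43 to 0.62 (day 6), 0.39 to 0.73 (day 8) and 0.19 to 0.38 (day 10). The cause of these ranges was not tested.

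Values that turned in sign were not called in the reported fit. Without factors HSPA1B was 0.01 on day 2, HSP90AA1 0.03 on day 6, HSPA8 0.02 on day 10, and between days 4 and 6 HSF1 was -0.04 and HSPH1 -0.00. With summed biotypes HSF1 was -0.02 on day 10, the step between days 4 and 6 was -0.01 for HSF1 and -0.16 for HSPH1, that between days 6 and 8 was 0.04 for HSPH1 and that between days 8 and 10 was -0.01 for DNAJB1. HSF1 was -0.00 between days 4 and 6 in the fit of these days alone and 0.00 between days 6 and 8 with RLE factors and DESeq2. Single libraries left out turned HSPA1A on day 4 (-0.07 to 0.22), HSP90AA1 on day 6 (-0.06 to 0.01), HSF1 (-0.00 to 0.09) and HSPA8 (-0.11 to 0.03) on day 10, HSF1 (-0.02 to 0.05), HSPA1B (-0.11 to 0.02) and HSPH1 (-0.04 to 0.14) between days 4 and 6, HSF1 (-0.02 to 0.03), HSPH1 (-0.13 to 0.02) and DNAJB1 (-0.00 to 0.06) between days 6 and 8, and DNAJB1 between days 8 and 10 (-0.04 to 0.03).

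The deviations of same-numbered libraries correlated weakly (r from -0.118 to 0.098, 0 of 5 pairs over 0.1 in each comparison), below the 0.1 set for reading the numbers as a pairing. Of 35 libraries 14 correlated best with their own number, where equal chance of the numbers gives 7. This is a hint from the data, since the sources used here do not tie the numbers to subcultures. With the replicate block, 1 member, HSP90AA1, was called higher between days 6 and 8 (0.19, adjusted p = 0.0258, edgeR), and the other counts of members were the same. For ratios 5 pairs cannot give a p below 0.0625, so the block gave values without a test. HSPA1A and BAG3 rest on the fewest counts of the members.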
